A study of Mus musculus with 16 samples.

Results

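The interferon receptors and stimulated genes were 42 genes, matched by symbol among the 19540 rows of a normalised expression table. They comprised 4 receptor chains, 4 transcription factors, 3 RNA sensors, 6 interferon-inducible GTPases and 25 other stimulated genes. All 42 had a row, and 41 reached the filter on low values, a normalised value of 10 in at least 3 libraries. The exception was Oas2, an oligoadenylate synthetase, which had reads in Tconv WT 4 alone, at 26.9.

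The RNA came from visceral adipose tissue (VAT) of mice of the C57BL/6JRcc strain aged 12 weeks. Regulatory T cells (Treg), which express Foxp3 and dampen immune responses, were sorted there alongside conventional T cells (Tconv). There were 4 Treg KO, 3 Treg WT, 5 Tconv KO and 4 Tconv WT libraries, from 5 deleted and 4 WT animals per the series description. KO animals carried floxed Hpgd deleted by Foxp3-YFP-Cre, so the deletion was driven in Foxp3-expressing cells, and Tconv KO cells come from the same kind of animal without being the target. The product of Hpgd is the prostaglandin-degrading enzyme 15-PGDH, and the study asked what its loss does to VAT Treg and to neighbouring Tconv. The line label read the same in all 16 libraries, so the genotype rests on the sample titles, and the sources used here do not say whether WT animals carried Cre. Which animal gave which library is not labelled, and p-values therefore measure the spread between libraries.

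Libraries held 3.39 to 9.26 M reads, apart from Tconv KO 3 with 56.7 M. Hpgd was at 3.41, 2.54, 2.42 and 1.00 in Treg KO libraries, against 73.1, 56.0 and 4.31 in Treg WT libraries, where 1 means no reads. The library labelled Treg WT 3 thus held 3 Hpgd reads, close to the KO libraries. Foxp3 ran from 279 to 546 in Treg KO and from 292 to 616 in Treg WT, and was at most 39.3 in any Tconv library. All 5 Treg markers were higher in Treg than in Tconv in both genotypes. The 5 T cell markers with a row had reads in all groups, and all 5 had negative Treg minus Tconv differences in both genotypes. Of these only Lck passed the test between the cell types, at log2 differences of -0.73 in KO and -0.94 in WT. Tconv WT 1 held neutrophil transcripts (marker sum 15700, against 1130 for the median Tconv WT library) and Tconv WT 3 red cell transcripts (159000, against 827). Red cell marker sums were also raised in Tconv WT 1 (1497), against 104 and 156 in Tconv WT 2 and Tconv WT 4. Treg KO 1 reached 1318, with at most 87.6 in the other Treg KO libraries.

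Interferons signal through paired receptor chains. Type I interferons bind IFNAR1 and IFNAR2 and act through the kinases JAK1 and TYK2 on a complex that includes STAT2 and IRF9 and binds the interferon-stimulated response element (ISRE). Interferon-gamma binds IFNGR1 and IFNGR2 and acts through JAK1 and JAK2 on gene promoters that hold the gamma-activated site (GAS). In visceral fat, interferon-gamma from T cells and NK cells is known to activate macrophages during obesity.

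RefSeq promoter windows (GRCm38.p6, 250 bases before to 50 after each start) were at hand for 31 of the 42 members. The ISRE was searched as GAAA, any 2 bases, GAAA on either strand, and the GAS as the palindrome TTCNNNGAA. The stretches below show upstream bases of Oas3, Ifit3 and Gbp7, which passed a test between the cell types, of Isg15 and Ifit1, classical type I targets with repeated ISRE matches, and of Irf1 for its GAS. Each is written 5′ to 3′ along its gene, with every match in capitals.
Oas3, chr5:120777713-120777746, minus strand: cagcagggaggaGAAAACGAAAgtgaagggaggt
Ifit3, chr19:34583361-34583428, plus strand: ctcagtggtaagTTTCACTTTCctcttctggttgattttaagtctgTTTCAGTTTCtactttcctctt
Gbp7, chr3:142530218-142530304, plus strand: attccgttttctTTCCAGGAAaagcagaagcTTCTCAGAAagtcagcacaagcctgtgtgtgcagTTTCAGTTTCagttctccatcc
Isg15, chr4:156200863-156200908, minus strand: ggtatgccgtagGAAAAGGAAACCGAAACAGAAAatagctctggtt
Ifit1, chr19:34640773-34640825, plus strand: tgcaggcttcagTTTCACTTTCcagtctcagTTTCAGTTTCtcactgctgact
Irf1, chr11:53769912-53769944, plus strand: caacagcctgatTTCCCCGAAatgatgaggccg

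In Oas3 the ISRE match lay 75 to 66 bases before the start, on the gene's own strand. Isg15 held 3 ISRE matches that run into each other, while Ifit1 and Ifit3 held 2 each, read on the opposite strand. Gbp7 held 2 GAS matches upstream of 1 ISRE match. Of the 31 members with a window, 17 (54.8%) held an ISRE match, as did 3.99% of all 27025 gene symbols with a window. GAS matches were found for 11 of 31 members (35.5%) and for 9.55% of all symbols. All 5 GTPases and both RNA sensors with a window held an ISRE match, as did 9 of 16 other stimulated genes and, among the 4 transcription factors, Stat2 alone. None of the 4 receptors held an ISRE match, and Ifnar1 and Ifnar2 held a GAS match. Both motifs were found in 5 members, and in Bst2 they shared bases. Both RNA sensor matches lay after the start (Ifih1 at 32 to 41 bases, Ddx58 at 2 to 11), and in upstream bases alone 0 of 2 sensors and 14 of 31 members held one. A match of letters is a description and not a bound site.

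**Figure D1:**
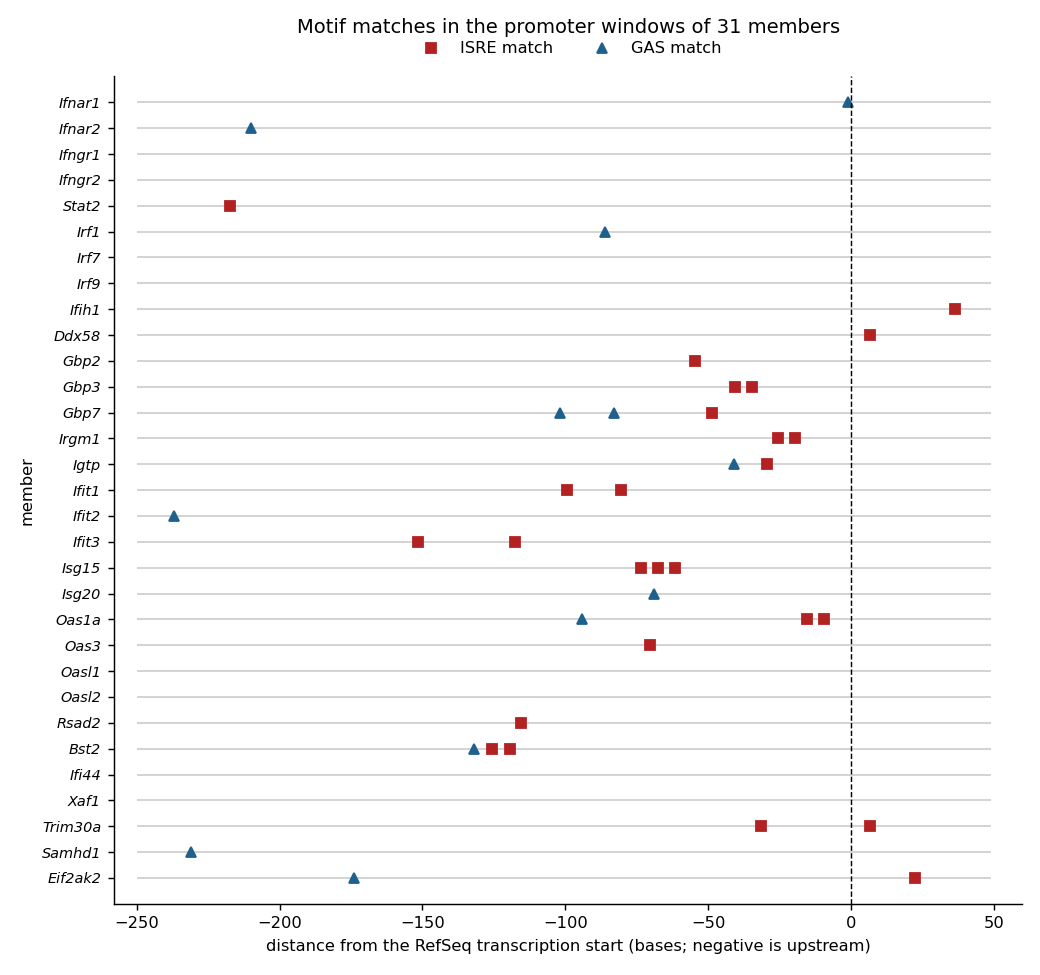
Position of ISRE matches (red squares) and GAS matches (blue triangles) relative to the RefSeq transcription start, in bases, for the 31 members with a promoter window; grey lines are the windows. The 5 GTPases each carry an ISRE match within 59 bases of the start, and 8 members, among them Ifngr1, Ifngr2, Irf7 and Irf9, carry neither motif.

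Per kilobase of annotated exon (normalised value without its offset of 1, divided by exon length), Ifngr1 stood first of the 42, at 5917 in Treg KO, 7112 in Treg WT, 3691 in Tconv KO and 4379 in Tconv WT. The next in order over all libraries were Ifi27, Irf1, Igtp and Ifnar1, at 657, 609, 557 and 404 per kilobase. At the other end stood Oasl1, Oasl2, Ifi44, Mx2 and Oas2, at 3.93 or less. Ifngr1 alone made up 34.3% to 55.0% of the summed signal of the members in a library. Reads were present in all 16 libraries for 31 members and missing from at least 1 library for 11, most of them classical type I targets such as Ifit1, Rsad2 and Usp18. Values below are normalised values (reads over the library's size factor, with 1 added), and differences are log2 differences of the value plus 1.

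The receptor chain Ifngr1 was higher in Treg than in Tconv in both genotypes, and Oas3 lower in both. Gbp7 and Samhd1 were higher and Ifit3 and Irf7 lower in Treg of KO animals, while Ifnar1 was higher and Irgm1 and Parp14 were lower in Treg of WT animals. In KO animals 6 of 41 members passed between the cell types, 3 higher and 3 lower in Treg, which is 14.6%, where 6.81% of all 14319 genes tested passed (4.16% higher, 2.65% lower). In WT animals 5 of 41 passed, 2 higher and 3 lower, which is 12.2%, where 4.18% of all genes passed (2.20% higher, 1.98% lower). The WT count of members fell to 1 with the 2 groups alone, where 341 genes passed, and to 1 without Tconv WT 2, where 457 did. The median difference of the members was -0.25 in KO and -0.67 in WT, where that of all genes tested was 0.035 in KO and -0.0037 in WT. Of the 41, 16 were positive in KO and 13 in WT. The KO and WT comparisons rest on separate libraries but share the estimate of the spread, and 32 of 41 members (78.0%) had the same sign in both, as did 64.5% of all genes tested. In bulk samples like these, fewer cells of a type and less RNA per cell cannot be told apart.

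**Figure D2:**
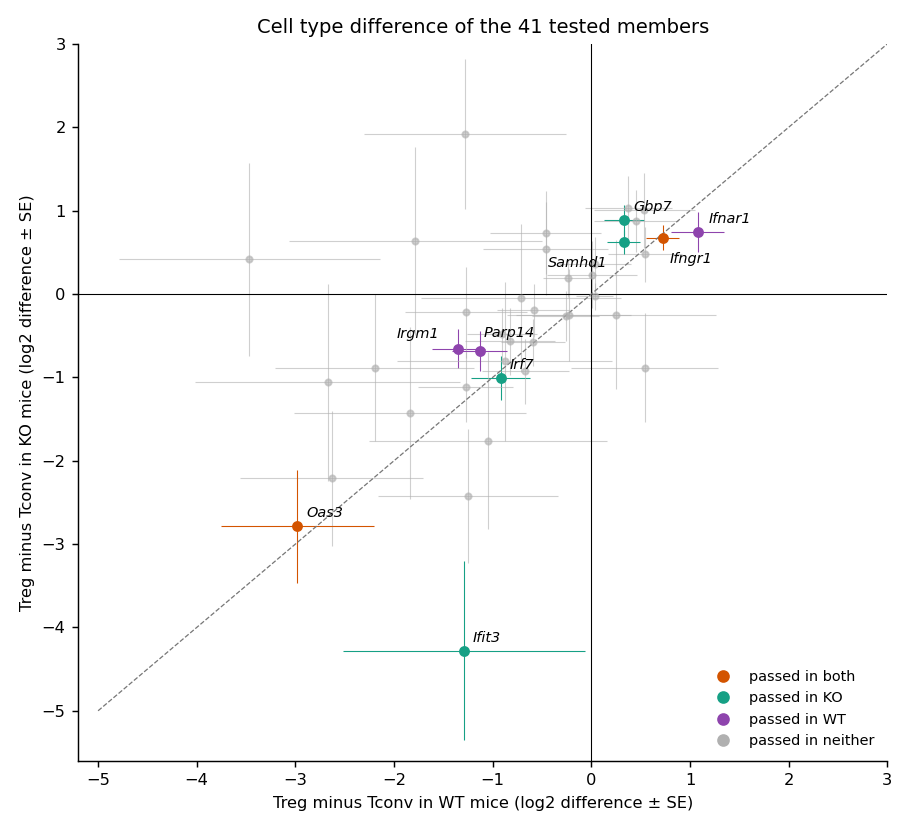
Treg minus Tconv log2 difference of each tested member in WT animals (x axis) and KO animals (y axis), with bars of 1 SE; colours give where a member passed. Ifngr1 and Oas3 passed in both, on opposite sides of 0, and 22 members lie below 0 on both axes.

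Ifngr1, the ligand-binding chain of the interferon-gamma receptor (chromosome 10, 19591949 to 19610229, mm10), read 15113, 19570, 14158 and 18550.3 in Treg KO and 20505, 19689 and 20555 in Treg WT. It read 10784, 10176, 9157, 12653 and 9783 in Tconv KO and 11179, 9593, 14044 and 15051 in Tconv WT. All Treg libraries lay above the Tconv libraries of their genotype, with no overlap. The difference was 0.68 in KO (SE 0.15, adjusted p = 0.00655) and 0.72 in WT (SE 0.17, adjusted p = 0.0166), a 1.65-fold higher level in Treg. Under quantile normalization it was 0.30 in KO (adjusted p = 0.348) and 0.47 in WT (adjusted p = 0.198), which ended both calls, while limma-voom kept both. The WT call also ended without Treg WT 1 (adjusted p = 0.0511), the library labelled Treg WT 3 (0.0661) or Tconv WT 2 (0.0583).

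Ifnar1, a chain of the type I receptor (chromosome 16, 91485238 to 91507441), read 2661, 3974, 3286 and 3447 in Treg KO and 3159, 1864 and 4269 in Treg WT. Tconv KO libraries read 2038, 2154, 1710.3, 1811 and 2199.8, and Tconv WT libraries 937, 1403.5, 1273 and 2219.9. The KO groups did not overlap, and in WT only Treg WT 2 fell below a Tconv library. The Treg minus Tconv difference of Ifnar1 was 0.75 in KO (SE 0.24, adjusted p = 0.0667) and 1.08 in WT (SE 0.27, adjusted p = 0.0257), where Ifnar1 was 2.11-fold higher in Treg. The WT call ended under 9 of 25 alternatives, among them leaving out Treg WT 1 (adjusted p = 0.0827), the library labelled Treg WT 3 (0.168), Tconv WT 1 (0.0786), Tconv WT 2 (0.0542) or Tconv WT 3 (0.0551), while the KO difference passed under 7.

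The partner chains Ifnar2 and Ifngr2 did not pass. Ifnar2, the other type I chain, read 386, 468, 623 and 641 in Treg KO and 608, 543 and 392 in Treg WT. It read 542, 671, 494, 585 and 887 in Tconv KO and 593, 736, 303 and 1016 in Tconv WT, ranges that overlap those of Treg. Its Treg minus Tconv difference was -0.26 in KO (95% interval -0.89 to 0.36) and -0.26 in WT (-0.97 to 0.45).

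Ifngr2, the signalling chain of the interferon-gamma receptor, read 301, 345, 126 and 306 in Treg KO and 102, 162 and 186 in Treg WT. It read 108, 129.6, 374, 158 and 92.5 in Tconv KO and 322, 76.1, 409.6 and 163 in Tconv WT. It spread widely within each group, and its Treg minus Tconv difference was 0.74 in KO (95% interval -0.30 to 1.78) and -0.46 in WT (-1.65 to 0.72). Ifnar2, Ifnar1 and Ifngr2 lie in this order on chromosome 16, with distances of 79.6 and 39.6 kb between these members.

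Among the transcription factors, Irf7, the factor that amplifies type I interferon induction, was lower in Treg of KO animals. It read 273, 511, 407 and 342 in Treg KO and 236, 445 and 313 in Treg WT, against 655, 766, 1037, 725 and 638 in Tconv KO and 464, 478, 831 and 735 in Tconv WT. Every Treg library lay below every Tconv library of its genotype. In KO the difference was -1.01 (SE 0.26, adjusted p = 0.0228) or 0.497-fold, and in WT it was -0.92 (SE 0.30, adjusted p = 0.101). The KO call ended under 4 of 25 alternatives, among them leaving out Treg KO 1 (adjusted p = 0.0907), Treg KO 4 (0.0704) or Tconv KO 3 (0.0564). Exons of Irf7 overlap those of Phrf1, and the libraries do not mark strand.

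Irf1, an immediate target of interferon-gamma, did not pass between the cell types. It read 3216, 2717, 2312 and 2510.4 in Treg KO and 2057, 1795 and 2341 in Treg WT. Tconv KO libraries read 3207, 3128, 2392, 2387 and 2609, and Tconv WT libraries 2209.5, 1594, 1932 and 2363. The Treg minus Tconv difference was -0.03 in KO (95% interval -0.37 to 0.31) and 0.04 in WT (-0.35 to 0.42).

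Irf9, the DNA-binding subunit of the type I complex, read 319, 293, 536 and 511 in Treg KO and 434, 363 and 109 in Treg WT. It read 535, 636, 360.3, 743 and 805 in Tconv KO and 610.0, 644, 210.3 and 536 in Tconv WT. Groups overlapped, with differences of -0.57 in KO (95% interval -1.41 to 0.27) and -0.83 in WT (-1.78 to 0.13).

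Stat2, a subunit of the same complex, read 87.8, 262, 91.6 and 199 in Treg KO and 325, 237 and 183 in Treg WT. It read 237, 204, 145, 306 and 612 in Tconv KO and 22.7, 314, 449 and 231 in Tconv WT. The single low value in Tconv WT 1 lies in the library with neutrophil transcripts, whose part in it was not tested. Neither cell type difference passed (-0.88 in KO, 95% interval -2.25 to 0.48, and 0.54 in WT, -1.02 to 2.10).

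**Figure D3:**
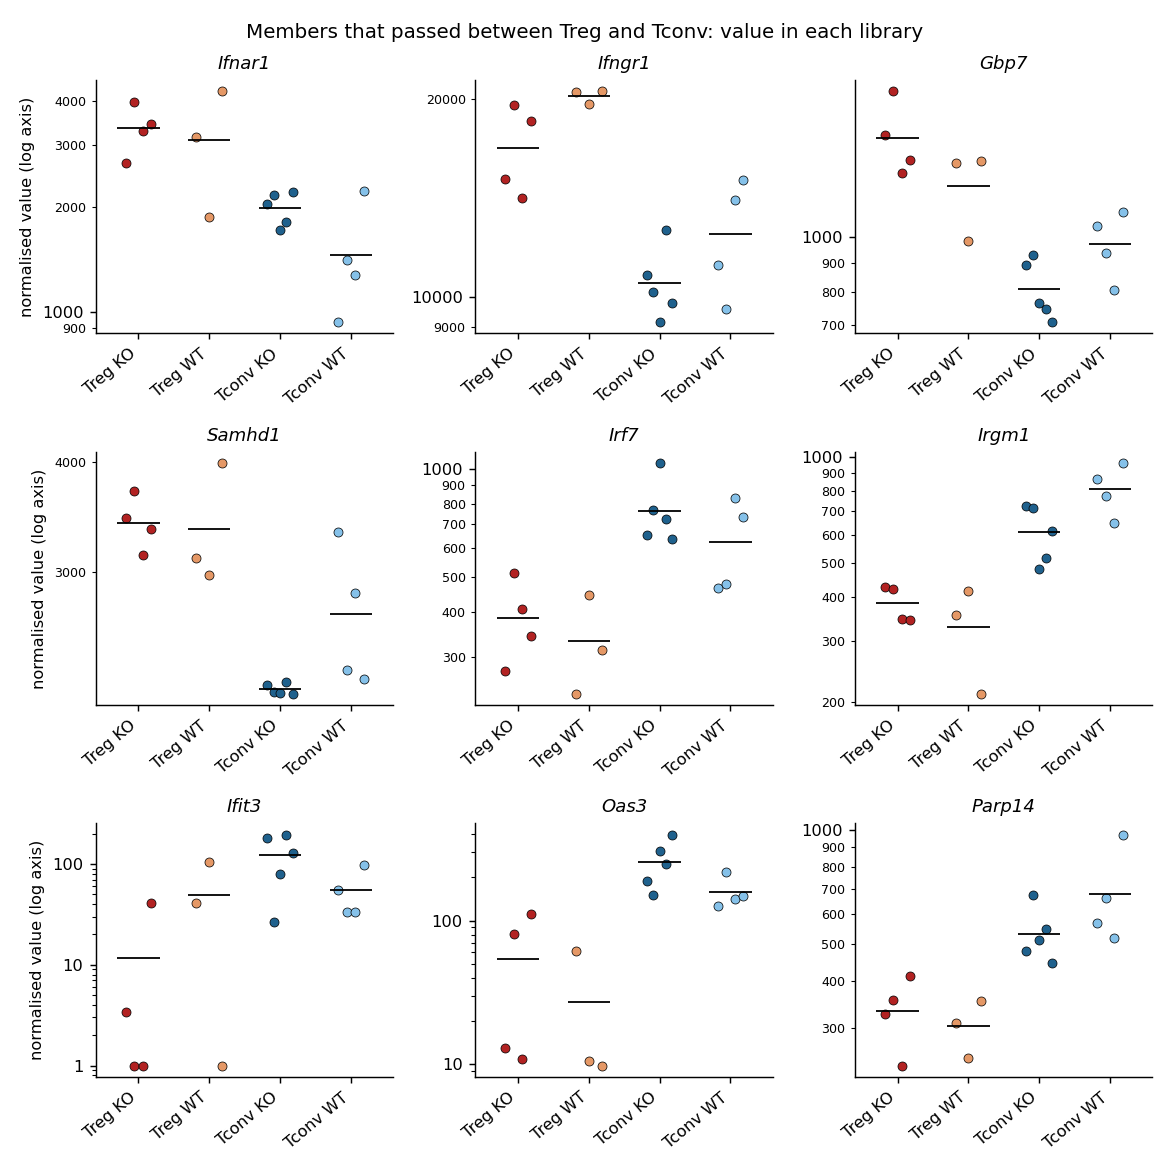
Normalised value (log axis) in each library of the 9 members that passed between Treg and Tconv in at least 1 genotype; points are libraries and black lines group means. Group means of Ifnar1, Ifngr1, Gbp7 and Samhd1 are higher in Treg, and those of Irf7, Irgm1, Ifit3, Oas3 and Parp14 lower. The cell types overlap in WT for Ifnar1, Gbp7, Samhd1 and Ifit3, and in KO for Ifit3.

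Oas3, an oligoadenylate synthetase that activates RNase L on double-stranded RNA (chromosome 5, 120753098 to 120777661), passed in both genotypes. It read 13.1, 80.9, 10.9 and 112 in Treg KO and 61.2, 10.6 and 9.82 in Treg WT. Tconv KO libraries read 188, 151, 303, 248 and 395, and Tconv WT libraries 127, 218, 142 and 148. Every Treg library was below every Tconv library, though Treg KO 2, Treg KO 4 and Treg WT 1 stood several times above the other Treg libraries. The difference was -2.79 in KO (0.145-fold, SE 0.68, adjusted p = 0.0143) and -2.98 in WT (0.127-fold, SE 0.78, adjusted p = 0.0314). The KO call ended under 3 of 25 alternatives, among them leaving out Treg KO 1 (adjusted p = 0.0611) or Treg KO 3 (0.0707). The WT call ended under 9 of 25 alternatives, among them leaving out Treg WT 2 (adjusted p = 0.104), the library labelled Treg WT 3 (0.149), Tconv WT 2 (0.0861), Tconv WT 3 (0.0517) or Tconv WT 4 (0.0642).

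The GTPases, which attack vacuoles that hold pathogens, included 1 that passed as higher and 1 as lower in Treg. Irgm1, a regulator of the other immunity-related GTPases, read 425, 420.4, 347 and 343 in Treg KO and 355, 415 and 212 in Treg WT, against 723, 716, 478, 516 and 617 in Tconv KO and 866, 772, 649 and 961 in Tconv WT. Neither genotype showed overlap between the cell types. The difference was -0.65 in KO (0.635-fold, SE 0.23, adjusted p = 0.112) and -1.35 in WT (0.393-fold, SE 0.27, adjusted p = 0.00548). The WT call held under all 25 alternatives.

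Gbp7, a guanylate-binding protein, lay on the other side. It read 1516, 1812, 1301 and 1371 in Treg KO and 1353, 984 and 1365 in Treg WT, against 895, 929.8, 766, 746 and 709 in Tconv KO and 1046, 939, 806 and 1109.9 in Tconv WT. The KO groups did not overlap and the WT groups did. Gbp7 was 1.85-fold higher in Treg in KO (0.89, SE 0.18, adjusted p = 0.0033, passing under all 25 alternatives), and the WT difference was 0.33 (SE 0.20, adjusted p = 0.452). Of the other GTPases, Gbp2, Gbp3, Igtp and Iigp1 did not pass in either genotype. Igtp was at 1.03 in KO and 0.37 in WT, Gbp3 at 0.47 in KO and 0.55 in WT, and Gbp2 at -0.20 in KO and -0.59 in WT. Iigp1 was at 0.42 in KO (SE 1.16) and -3.47 in WT (SE 1.32, adjusted p = 0.172).

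The 3 sensors of viral RNA, Ifih1 (MDA5), Ddx58 (RIG-I) and Dhx58 (LGP2), had negative Treg minus Tconv differences in both genotypes and did not pass. Ifih1 was at -1.12 in KO (adjusted p = 0.141) and -1.27 in WT (0.170), and Ddx58 at -0.48 in KO (0.459) and -0.91 in WT (0.184). The Treg WT and Tconv WT libraries did not overlap for Ifih1 or Ddx58. For Ddx58 they nearly touched, with a highest Treg WT value of 427.3 and a lowest Tconv WT value of 427.7. Dhx58 was at -0.04 in KO and -0.71 in WT, where its 95% interval reached from -2.83 to 1.40.

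Among the other stimulated genes 3 passed in KO, Oas3 and Ifit3 lower and Samhd1 higher in Treg, and 2 in WT, Oas3 and Parp14, both lower. Parp14, an ADP-ribosyltransferase, read 326, 356, 239 and 413 in Treg KO and 309, 249.6 and 353 in Treg WT, against 479, 673, 511, 549 and 446 in Tconv KO and 569.7, 661, 518 and 971 in Tconv WT. The cell types did not overlap in either genotype. Its difference was -0.68 in KO (SE 0.24, adjusted p = 0.110) and -1.13 in WT (SE 0.28, adjusted p = 0.0231), and the WT call ended under 7 of 25 alternatives, among them leaving out Treg WT 1 (0.0543), Treg WT 2 (0.0757), Tconv WT 2 (0.0501) or Tconv WT 4 (0.0772).

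Ifit3, a cytoplasmic antiviral protein, read 3.41, 1.00, 1.00 and 40.9 in Treg KO and 41.2, 106 and 1.00 in Treg WT. It read 183, 26.7, 80.3, 195 and 129 in Tconv KO and 55.8, 33.5, 33.2 and 98.9 in Tconv WT. Of the 7 Treg libraries 3 had no Ifit3 reads, while all 9 Tconv libraries had some. The KO difference was -4.28 (SE 1.07, adjusted p = 0.0176), although Treg KO 4 lay above Tconv KO 2, and the call ended without Treg KO 3 (adjusted p = 0.0723) or Treg KO 2 (0.0573) and with limma-voom (0.0689). In WT it was -1.29 (SE 1.22, adjusted p = 0.690), and 0.40 without the library labelled Treg WT 3.

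Samhd1, the dNTP hydrolase that restricts retroviruses, read 3457, 3704, 3136 and 3357 in Treg KO and 3111, 2978 and 3989.6 in Treg WT. The Tconv KO libraries were tightly grouped at 2233, 2194, 2184, 2249 and 2182, and the Tconv WT libraries read 3335, 2319, 2840.1 and 2265. The KO groups did not overlap, with a difference of 0.63 (SE 0.15, adjusted p = 0.00999), which under quantile normalization was 0.42 (0.0907). In WT the difference was 0.33 (SE 0.17, adjusted p = 0.338).

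The rest of these genes did not pass. Rtp4, a receptor transporter, was at -2.43 in KO (adjusted p = 0.0804) and -1.25 in WT (0.565), with no overlap between the cell types in either genotype. Mx1, a gene of the dynamin-like GTPase family, was at -2.21 in KO (0.126) and -2.63 in WT (0.132). Isg15, the ubiquitin-like modifier, was at 0.88 in KO (0.204) and 0.45 in WT (0.690). Over the 24 tested genes of this role the median difference was -0.42 in KO, with 15 negative, and -0.96 in WT, with 18 negative.

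Counted without regard to the test, the cell types did not overlap for 10 of 41 members in KO (24.4%) and 9 of 41 in WT (22.0%). Over all genes tested these shares were 10.7% in KO and 12.0% in WT. In KO 5 of the 10 were higher in Treg, and in WT 8 of the 9 were lower.

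Some transcripts of CD8 T cells and NK cells moved with the cell type. Of 6 such markers 5 were tested, and Klrd1 and Nkg7 passed as lower in Treg in both genotypes, at -4.39 and -3.91 in KO and -5.48 and -2.96 in WT. The other 3 did not pass, and 2 of the 5 had a positive difference in WT. Cd8a ran from 9.50 to 17.9 in Treg KO and 2.83 to 76.0 in Treg WT, against 1.00 to 289 in Tconv KO and 1.00 to 6.63 in Tconv WT. The summed marker level ran from 285 to 2020 in Treg KO and 415 to 3150 in Treg WT, against 8460 to 16900 in Tconv KO and 7000 to 11100 in Tconv WT. Most of that sum was Nkg7, a granule protein gene of cytotoxic cells. Its lowest value in Treg KO was 175, where the lowest sum was 285. Nkg7 averaged 1031 in Treg KO and 1499 in Treg WT, against 11788 in Tconv KO and 8455 in Tconv WT. Klrd1 had no reads in any Treg library and Ncr1 none in Treg WT or Tconv KO. Their part in the differences between the cell types was not tested. Macrophage marker sums were at most 280 in Treg KO and 55.7 in Treg WT, against 222 in Tconv KO and 1080 in Tconv WT, the last from Tconv WT 1. The highest Treg KO sum came from Treg KO 1. Of 9 macrophage markers with a row, 4 were tested. Their Treg minus Tconv differences were 2 positive (up to 3.21) and 2 negative in KO, and 1 positive and 3 negative in WT. Cd68 alone passed, as lower in Treg in KO (-3.48, SE 0.97, adjusted p = 0.0318), at no more than 19.4 in Treg KO and at least 36.3 in Tconv KO. Its part in the differences was not tested. With Tconv KO 3, Tconv WT 1 and Tconv WT 3 left out together, 2 members passed in WT (Irgm1 and Parp14).

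Hpgd deletion moved no member past the test in Treg. Of 41 members 0 passed (limma, with 2 at an unadjusted p under 0.05; limma-voom on recovered reads also gave 0, with 1), where 3 of 14319 genes, 0.0210%, passed. Of the 41 differences, 31 were positive (75.6%), as were 55.7% of all genes, and the median was 0.28, where that of all genes was 0.075. Without the library labelled Treg WT 3, 28 of 41 were positive (68.3%, and 54.1% of all genes), the median was 0.28 and 0 members passed. The groups did not overlap for 4 members, 9.76%, where 6.01% of all genes did not, namely Iigp1, Oasl1 and Oasl2 above and Ifngr1 below the WT libraries. For Oasl2 the KO values stand for 38, 3, 3 and 8 reads and the WT values for 0, 2 and 3. For Ifngr1 the groups nearly touched, with a highest KO value of 19570 and a lowest WT value of 19689.

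Iigp1, an immunity-related GTPase, had the smallest p. It read 40.8, 97.8, 27.9 and 154 in Treg KO, against 1.00, 1.87 and 24.2 in Treg WT, where the WT values stand for 0, 1 and, in the library labelled Treg WT 3, 21 reads. Every KO library lay above every WT library. The difference was 3.64 (SE 1.32, 95% interval 0.88 to 6.41, unadjusted p = 0.0125, adjusted p = 0.741), and 2.95 without Treg WT 1 to 4.77 without the library labelled Treg WT 3. With a pseudocount of 10 it was 2.21. In Tconv KO it read 281, 11.9, 5.06, 90.3 and 141, against 174, 165, 50.3 and 6.63 in Tconv WT, so the Tconv groups overlapped.

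Oasl1, an oligoadenylate synthetase-like protein, read 7.03, 14.8, 25.1 and 38.9 in Treg KO, against 1.91, 2.74 and 2.10 in Treg WT. The WT values stand for 1, 2 and 1 reads and the KO values for 5, 9, 17 and 39. The difference was 2.56 (SE 1.02, 95% interval 0.42 to 4.70, unadjusted p = 0.0215, adjusted p = 0.741), and 2.20 to 2.98 with a library left out. With a pseudocount of 10 it was 1.25. Tconv libraries read 4.65, 3.34, 1.76, 23.3 and 1.00 in KO, against 38.2, 11.1, 3.01 and 1.00 in WT.

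Irf1 followed, at 0.38 (95% interval -0.01 to 0.77, adjusted p = 0.809), with mean values of 2689 ± 388 in Treg KO and 2064 ± 273 in Treg WT (SD, n = 4 and 3). Among members lower in KO, the smallest p-values belonged to Usp18, the isopeptidase that removes ISG15 (-2.18, SE 1.20, adjusted p = 0.838), Ifngr1 (-0.28, SE 0.17, 0.840) and Ifit3 (-2.0, SE 1.22, 0.840). The Ifit3 value was -0.82 without Treg WT 2 and -3.69 without the library labelled Treg WT 3. Ifngr1 averaged 16848 ± 2618 in Treg KO and 20249.8 ± 486 in Treg WT, with each KO library below each WT library. Mx2, annotated as a polymorphic pseudogene, was at 1 in all 3 Treg WT libraries. It reached 45.8 in Treg KO 4 alone beyond 3 reads, and no fold is given for it. The other receptors were at 0.18 for Ifnar1 (95% interval -0.39 to 0.74), 0.03 for Ifnar2 (-0.68 to 0.75) and 0.78 for Ifngr2 (-0.40 to 1.97).

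In Tconv, where Hpgd was not the target, 0 of 41 members passed between KO and WT (limma, 2 at an unadjusted p under 0.05; limma-voom 0, with 3). Of all genes tested 0% passed (limma, with 781 at an unadjusted p under 0.05; limma-voom 0, with 1311). The members' median was -2.321e-05, with 20 of 41 positive. The groups did not overlap for 2 members, 4.88%, where 1.67% of all genes did not: Irf1, higher in KO, and Samhd1, lower. In both cases they nearly touched. The lowest KO value of Irf1 was 2387 and its highest WT value 2363, and for Samhd1 the highest KO value was 2249 and the lowest WT value 2265. Irf1 averaged 2745 ± 397 in Tconv KO and 2025 ± 338 in Tconv WT (SD, n = 5 and 4), a difference of 0.44 (SE 0.16, 95% interval 0.10 to 0.78, unadjusted p = 0.0139, adjusted p = 0.858). The next were Ifnar1 at 0.51 (SE 0.24, adjusted p = 0.900) and Oasl2 at 1.72 (SE 0.96, 0.931) on the higher side, and Samhd1 at -0.27 (SE 0.15, 0.931), Irgm1 at -0.42 (SE 0.23, 0.931) and Ifngr1 at -0.23 (SE 0.15, 0.950) on the lower.

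**Figure D4:**
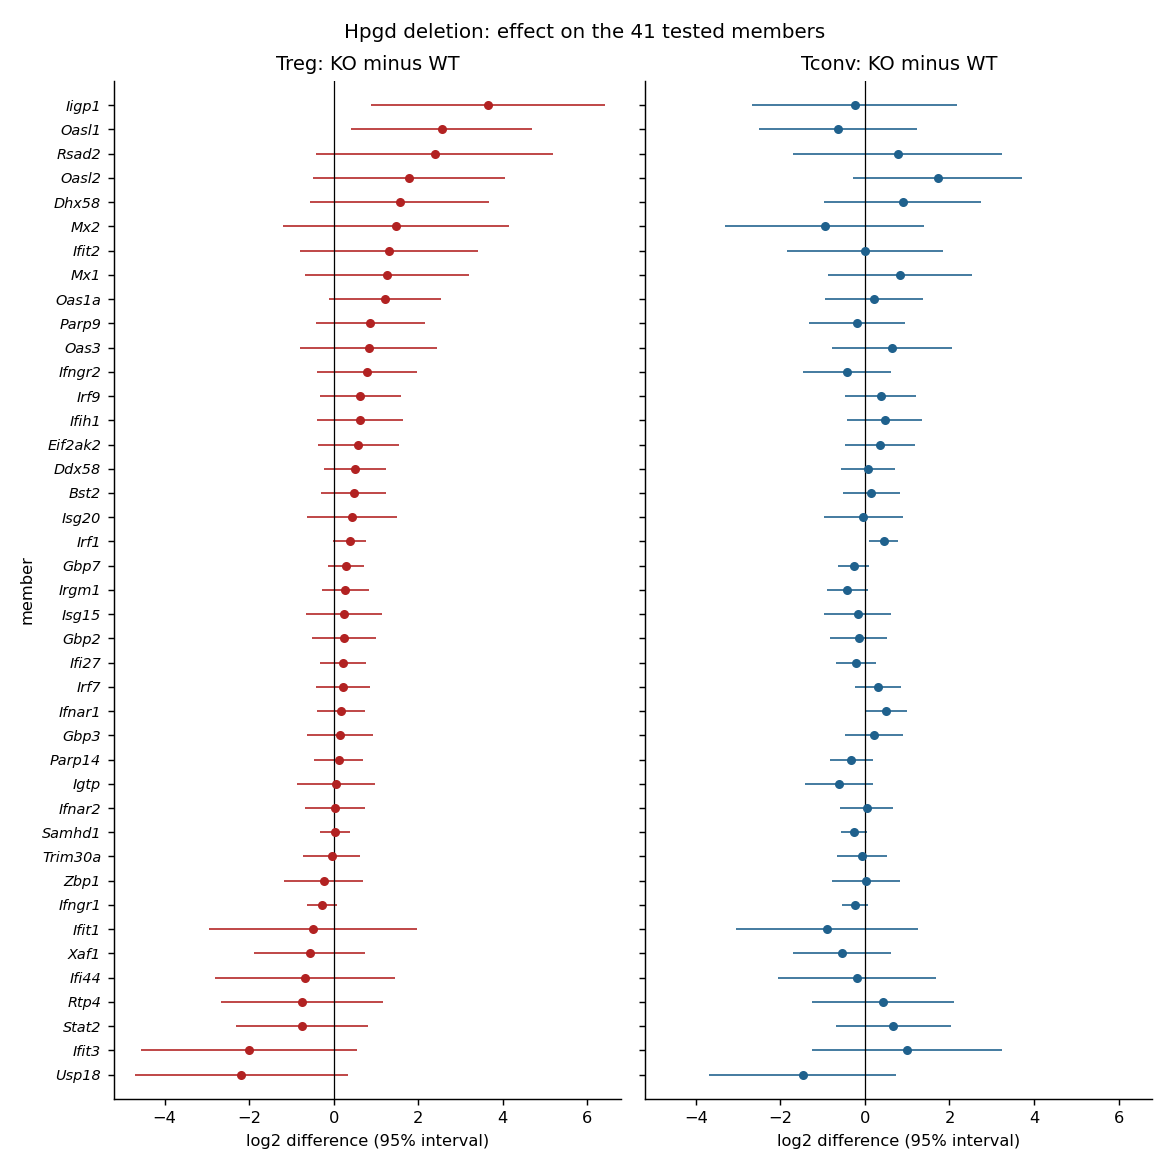
KO minus WT log2 difference with its 95% interval for the 41 tested members in Treg (left) and Tconv (right), ordered by the Treg difference. None passed in either cell type, and intervals are widest for low genes such as Iigp1, Rsad2 and Mx2.

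No member passed the test of whether the deletion effect differed between the cell types. For the effect in Treg minus the effect in Tconv, which equals the change of the Treg minus Tconv difference between KO and WT animals, 0 of 41 members passed (limma, 2 at an unadjusted p under 0.05; limma-voom 0, with 3). Of all genes 0% passed (limma, with 748 at an unadjusted p under 0.05; limma-voom 0, with 846). The smallest p-values were those of Oasl1 at 3.20 (SE 1.36, unadjusted p = 0.0296), Iigp1 at 3.88 (SE 1.76, 0.0396) and Gbp7 at 0.55 (SE 0.27, 0.0541), with an adjusted p of 0.929 each. On the negative side stood Ifit3 at -2.99 (SE 1.63), Stat2 at -1.42 (SE 0.99) and Rtp4 at -1.17 (SE 1.22). Members that passed between the cell types in 1 genotype alone, such as Gbp7 in KO and Irgm1 in WT, are therefore not shown to differ between genotypes: the change was 0.69 for Irgm1 (SE 0.35, unadjusted p = 0.0648).

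Of the interferon genes themselves, 6 of 21 listed had a row in the table and Ifng alone was tested. Ifng read 924, 485, 111 and 468 in Treg KO and 533, 1726 and 222 in Treg WT, against 3865, 2226, 1988, 3085 and 4275 in Tconv KO and 3357, 3466, 2052 and 4307 in Tconv WT. Every Tconv library lay above every Treg library. The difference was -2.91 in KO (SE 0.52, adjusted p = 0.00126) and -2.43 in WT (SE 0.59, adjusted p = 0.0222). The other 5 interferons had a highest value of 23.7 in any library.

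Of 105 tested pathway genes outside the members, 8 were higher and 12 lower in Treg in KO, and 4 higher and 9 lower in WT, where 6.81% of all genes tested passed in KO and 4.18% in WT. The WT count of 13 fell to 8 without Treg WT 1 and to 6 without the library labelled Treg WT 3. Among further type I stimulated genes (52 tested) 4 were higher and 8 lower in Treg in KO, and 3 higher and 3 lower in WT. Slfn2, a regulator of T cell quiescence, was lower in both (-1.10, SE 0.17, in KO and -1.71, SE 0.19, in WT), as was Epsti1 (-1.85, SE 0.29, in KO and -2.31, SE 0.33, in WT). Ly6e and Ly6a, GPI-anchored surface proteins, were higher in both, Ly6e by 1.53 in KO and 1.04 in WT and Ly6a by 2.03 in KO and 1.63 in WT. Slfn1 was lower in KO (-3.01, SE 0.44).

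Of 26 further interferon-gamma targets, Icam1, an adhesion molecule, was higher in Treg (1.43 in KO and 1.18 in WT) and Serpina3g, a serine protease inhibitor, lower (-2.59 in KO and -2.23 in WT), and B2m (0.43) and Irf8 (1.53) passed as higher in KO. Irf5 (2.61), a factor of nucleic acid sensing, also passed in KO. Of 9 inhibitors, Socs3, a feedback inhibitor of cytokine signalling, was lower in Treg in both (-1.70 in KO and -1.86 in WT), as was the phosphatase gene Ptpn11 (-1.26 in KO and -1.82 in WT). Ptpn6, which encodes the phosphatase SHP-1, passed in WT (-2.67, SE 0.38, adjusted p = 0.000246). Between KO and WT 0 of the 105 passed in Treg, in Tconv or in the difference of effects (limma, with 6, 6 and 4 at an unadjusted p under 0.05). The Ly6, Slfn and Serpina3 genes have close copies, and reads shared between copies may be split.

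Members also differed in how much they varied between libraries of a group. The pooled SD of log2 values was 0.17 for Samhd1, 0.21 for Gbp7 and 0.21 for Ifngr1, and 1.98 for Iigp1, 1.97 for Rsad2 and 1.88 for Mx2. Its median was 0.681 over the members and 0.772 over all genes tested. As a description of each library, the 37 tested members other than receptors were centred on their own means and their median taken. This was 0.15, -0.04, -0.52 and 0.41 in Treg KO and -0.26, -0.20 and -0.51 in Treg WT. It was 0.31, 0.04, 0.01, 0.36 and 0.27 in Tconv KO and 0.35, 0.57, 0.27 and 0.13 in Tconv WT. Treg KO 3 and the library labelled Treg WT 3 were lowest, and Treg KO 1 and Treg KO 4 lay within the Tconv range.

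**Figure D5:**
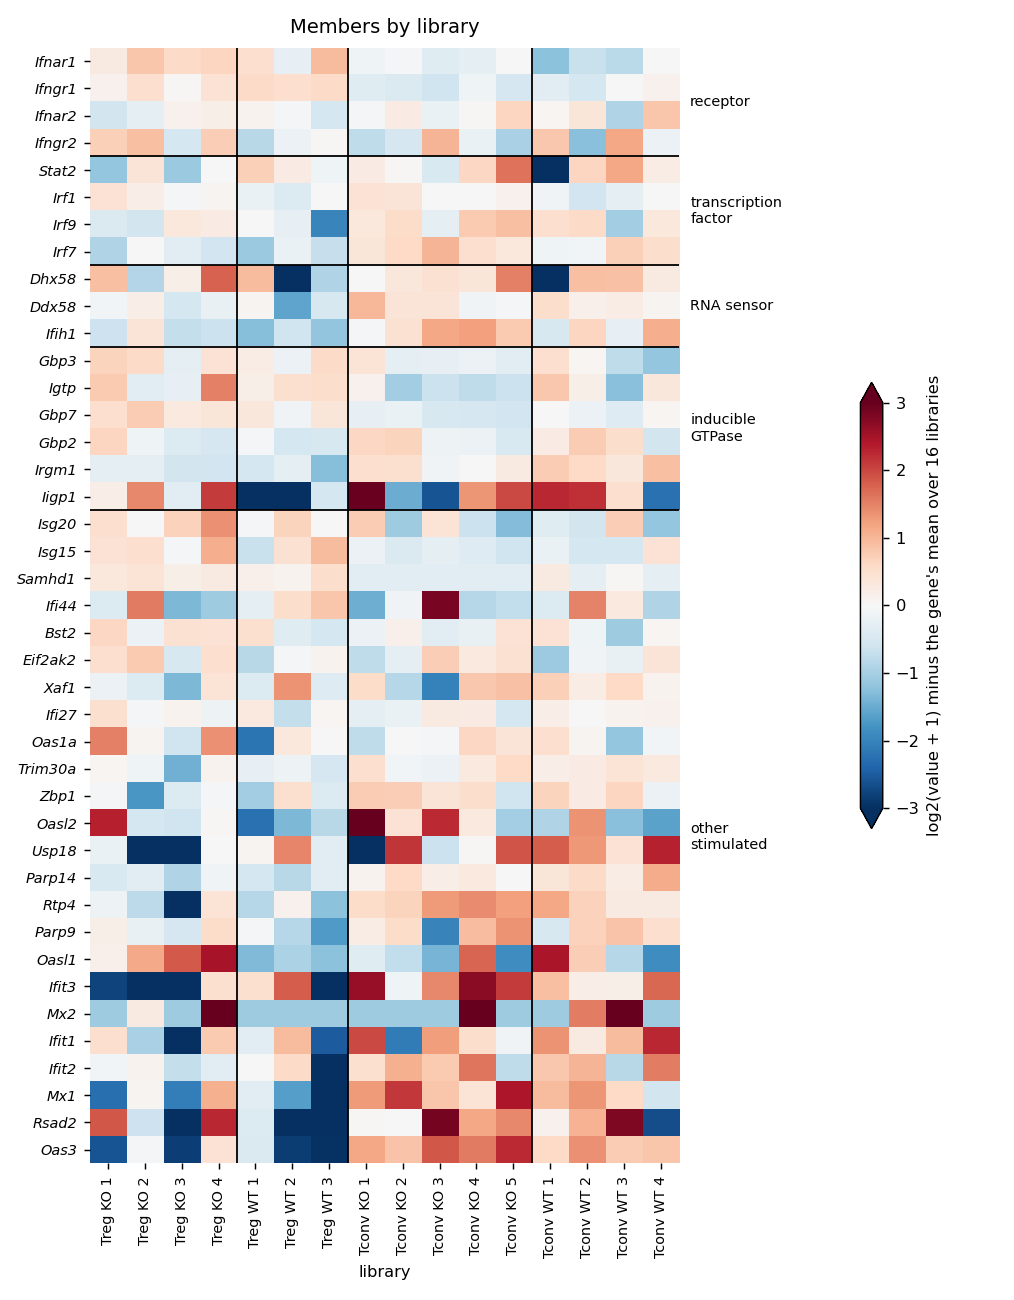
Deviation of log2(value + 1) from each gene's mean over the 16 libraries, for the 41 tested members (rows, grouped by role) in each library (columns, grouped by cell type and genotype); red is above and blue below the mean, with colours saturating at 3. Oas3 is below its mean in most Treg libraries and above it in every Tconv library, and Treg KO 3 is low for Ifit1, Ifit3, Rsad2, Usp18 and Rtp4.

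Members in clusters were Ifit2, Ifit3 and Ifit1 on chromosome 19 (gaps of 7.1 and 52.1 kb), Gbp7, Gbp3 and Gbp2 on chromosome 3 (9.9 and 47.4 kb), Oasl2 and Oasl1 (11 kb) and Oas2, Oas3 and Oas1a (3.2 and 118.6 kb) on chromosome 5, and on chromosome 16, besides the receptors, Parp14 and Parp9 (66.9 kb) and Mx1 and Mx2 (72.4 kb). In KO animals Gbp7 passed as higher in Treg, while Gbp3 was at 0.47 and Gbp2 at -0.20. Of the 42 members, 14 share exon bases with a neighbouring gene, in 6 cases a protein coding one (Ifnar2, Irf1, Irf7, Irf9, Igtp and Parp9). Reads within the shared bases could come from either gene. The libraries do not mark strand, and for Ifnar2, Irf9 and Igtp the coding neighbour lies on the same strand. The Ifit, Oas, Oasl and Gbp families hold close copies, which makes their split of reads uncertain.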

How the data were processed

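RNA from 16 libraries of sorted VAT Treg and Tconv was sequenced with SMART-seq2 from 10 ng of RNA, a protocol that does not mark strand, per the labels' protocols. The deposited signal is, as its values show, gene reads over a per-library size factor, with 1 added; whole reads were recovered from its steps for 100% of values under 1000 reads, within 0.1 of a read. Build mm10 and the tools kallisto 0.44, DESeq2, Partek 6.6, CASAVA 1.8 and R 3.3.1 appear, without roles, in the submitters' processing notes; the annotation is not given in the sources used here.

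Values were taken as log2(value + 1), so folds of low genes are understated. One limma 3.58.1 model (R 4.3.3, mean-variance trend, all 16 libraries, no replicate block) gave 5 comparisons, tested on the 14319 genes reaching 10 in 3 or more libraries, with 2-sided p-values and Benjamini-Hochberg adjustment per comparison over all of them; the threshold was an adjusted p of 0.05. The method was tested on simulated counts with the same dispersion for every gene. Changes were put only into well expressed genes and checked in Treg against Tconv in WT. Low members and the deletion comparisons were not covered by that simulation. Precision is limited by depth: 3 reads correspond to values of 1.38 to 7.09, covering counting error only. Positions and exon lengths are from GENCODE M21 and promoters from RefSeq; 35 of 38 member windows matched the sense strand of an annotated transcript. Full statistics go to members that passed, otherwise to the 3 smallest p-values in each direction; receptors and transcription factors are described in any case. The members and lists were chosen with earlier results of these data known, so no pattern here is independent support for those results. Alternatives were other scaling, pseudocounts, filters, a replicate block, 2-group fits and leaving out each library; limma-voom, a fit without 3 Tconv libraries and a promoter window of upstream bases were added after seeing the data.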

Additional observations from a re-analysis of the deposited data

Results flagged for a closer look

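In groups of 4 or 5 libraries, 8 of 123 combinations of member and group held a library that stood apart from the others by Dixon's ratio; chance marks about 1 in 20 groups. In Treg KO, Ifngr2 was low in Treg KO 3 (126, the others 301 to 345), as was Trim30a, a ring-finger protein (201, the others 502 to 592), and Ifih1 was high in Treg KO 2 (168, the others 78.9 to 84.2). In Tconv KO, Gbp3 was high in Tconv KO 1 (453, the others 274 to 307), Mx2 had reads in Tconv KO 4 alone (35.3), and Zbp1, a sensor of Z-form nucleic acids, was low in Tconv KO 5 (245, the others 488 to 627). In Tconv WT, Irf9 was low in Tconv WT 3 (210.3, the others 536 to 644), the library with the most red cell transcripts, and Dhx58 in Tconv WT 1 (5.14, the others 80.9 to 127), the library with neutrophil transcripts. Whether those transcripts bear on these values was not tested.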

How the results depend on the processing

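Of 891 alternatives of 36 single member values, 838 kept direction and side of the threshold, 43 lost the call, 8 gained it and 2 reversed: Rtp4, effect in Treg minus in Tconv, was 0.0473 without Treg KO 3 (-1.78 to 0.0473 with a library left out), and Ifit3, Treg against Tconv in WT, 0.40 without the library labelled Treg WT 3 (-2.47 to 0.40). The count of 0 members for both deletion comparisons and their difference held under every alternative run. Members passing between Treg and Tconv in KO numbered 4 to 7 with a library left out. In WT they numbered 3 under quantile normalization, 3 with a replicate block, 1 with the 2 groups alone, 2 with limma-voom, 2 with Tconv KO 3, Tconv WT 1 and Tconv WT 3 left out together, and 1 (without Tconv WT 2) to 5 with 1 library left out, with 2 without Treg WT 1 or the library labelled Treg WT 3 and 3 without Tconv WT 3 or Tconv WT 4. Pathway genes in WT numbered 6 to 16 with a library left out (8 without Treg WT 1, and 6 without the library labelled Treg WT 3). All genes passing in that comparison numbered 341 with the 2 groups alone, 288 with limma-voom and 338 to 664 with a library left out, the lowest when the library labelled Treg WT 3 was dropped. For Treg KO against Treg WT all genes passing numbered 1 at a filter of 50 in 3 libraries, 0 with the replicate block, 0 with the 2 groups alone, 0 with limma-voom, and 0 to 17 with a library left out (17 without Treg WT 1, and 0 without the library labelled Treg WT 3); for the difference of effects 0 to 2. Causes were not tested, except that fewer libraries enter the smaller fits. Deviations of same-numbered libraries from their group means correlated at -0.037 to 0.0787 (21 pairs, median 0.0431). Correlations this weak do not settle whether equal numbers mark pairs. With the replicate block the Oas3 call in KO had an adjusted p of 0.0511. With upstream bases alone, 14 of 31 members held an ISRE match, and 0 of 2 RNA sensors. The edgeR fits planned were not run. Depth limits members at or under 3 reads in some library, 13 of 42.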
